A study of Zea mays with 48 samples.

Results

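HSP101 is a maize heat shock gene that is measured by 1 probe, S_hsp101, of the 3585 probes that remain after the control entries of this array are left out. It was picked by its probe ID, for a difference between the inbred lines UH301 and UH005 in endosperm that was known from these data. That contrast is therefore described below and not tested. The name of the probe matched 1 protein-coding gene, LOC541780 (GRMZM2G360681), in the RefSeq gene table of the B73 assembly Zm-B73-REFERENCE-NAM-5.0. No other probe ID held the name of a heat shock protein, a heat shock factor, a Clp protein or a DnaJ chaperone (0 others).

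The study compared maize hybrids with their inbred parents in endosperm and in embryos that were dissected by hand 6 days after pollination. The hybrids were 301x005 and its reciprocal 005x301, and 301x250 and its reciprocal 250x301. The inbreds were the selfed lines UH301, UH005 and UH250, here 301, 005 and 250. The series title names heterosis, or hybrid vigour, as its subject. Plants grew in a glasshouse at 25 °C by day and 20 °C by night, and the labels name no heat treatment and no genetic modification in any group. The number of kernels behind a sample is not stated in the labels. Each of the 48 arrays held the RNA of 1 hybrid and of 1 inbred, and 4 arrays that set both reciprocal hybrids against both inbreds form a loop. Cross 301/005 has 4 loops per tissue, which the labels call biological replicates, and cross 301/250 has 2.

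HSP101 belongs to the ClpB/Hsp100 family of ATPases, which thread proteins out of heat-induced aggregates and pass them to other chaperones for refolding. In plants, heat shock factors switch such genes on when temperature rises, and in maize and Arabidopsis mutants that lack HSP101 survive heat less well. The maize protein is also known to be present in developing kernels without heat stress. The arrays measure transcript ratios between genotypes, not heat tolerance and not protein.

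Every value is a log2 ratio of hybrid over inbred or a difference of such ratios. Ratios were read with channel 1 on top. This direction is likely, since array titles list the RNAs in channel order, but no label states it. With the other direction every sign below would turn. The log base is not stated either and was taken as 2. Values are ratios within an array, so no level can be set against that of another gene or of the other tissue. An array had values for 926 to 3430 probes. In cross 301/005, arrays of the same genotypes and dye orientation correlated across all probes at r 0.27 to 0.58 in endosperm and at r 0.07 to 0.31 in embryos, so embryo arrays repeated each other less closely. As the tissues are mixtures of cells, fewer cells that use HSP101 and less HSP101 RNA per cell cannot be told apart. Of the endosperm-expressed genes MEG1, FIE1 and NRP1, values were present on 19, 20 and 14 of the 22 endosperm arrays that carry their probes, and on 10, 13 and 13 of the 16 such embryo arrays, which does not by itself check the tissue labels.

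HSP101 had a value on 46 of 48 arrays, on all 24 endosperm arrays and on 22 embryo arrays. Both missing values lie in replicate 4 of the 301/005 embryos (301x005 over 301 and 005x301 over 005), where 926 to 2253 probes of an array had a value. Pooled over all arrays, HSP101 had one of the smallest spreads among the probes. Its ratios ranged from -0.80 to 0.73 with an SD of 0.24, and 1.1% of the 1815 probes with at least 40 values had a smaller SD (median 0.46). The arrays without an HSP101 value are sparse and other probes may include them, so this rank is not a like comparison. Without centring of the arrays, the ratio lay below 0 on 30 arrays and above it on 16. It was beyond 0.5 in size on 2 arrays, both 301/005 endosperm.

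**Figure D1:**
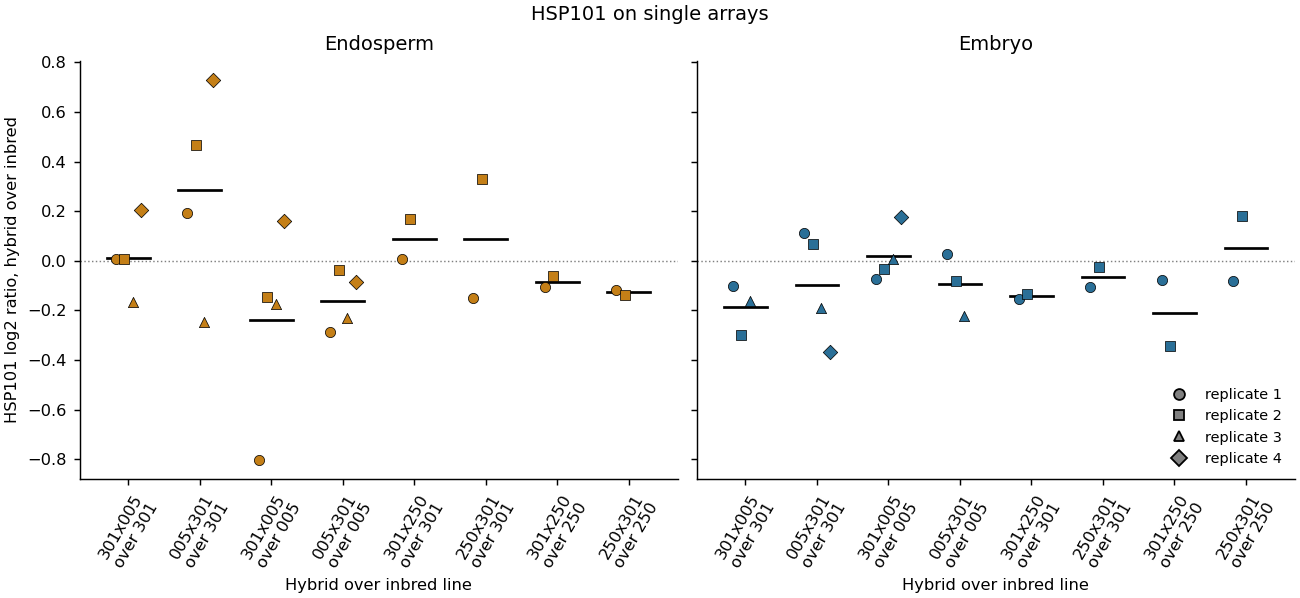
HSP101 log2 ratio of hybrid over inbred on each of 46 arrays, in endosperm (left panel) and embryo (right panel), for the 8 pairs of hybrid and inbred. Points are arrays, their shape gives the replicate and bars are group means. Ratios reach 0.73 and -0.80 in 301/005 endosperm and stay between -0.37 and 0.18 in embryos.

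In 301/005 endosperm the ratio of 301x005 over inbred 301 was 0.01, 0.01, -0.17 and 0.20 in replicates 1 to 4, and that of 005x301 over inbred 301 was 0.19, 0.47, -0.25 and 0.73. Over inbred 005 the ratio of 301x005 was -0.80, -0.15, -0.17 and 0.16, and that of 005x301 was -0.29, -0.04, -0.23 and -0.09. Thus 005x301 lay above inbred 301 in 3 of 4 replicates and below inbred 005 in 4 of 4. The means over 4 replicates were 0.29 ± 0.42 for 005x301 over 301, -0.16 ± 0.12 for 005x301 over 005, 0.01 ± 0.15 for 301x005 over 301 and -0.24 ± 0.40 for 301x005 over 005 (SD). These ratios carry the inbred difference that selected the gene, so they were not tested.

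In 301/005 embryos the ratio of 301x005 over inbred 301 was -0.10, -0.30 and -0.16 in replicates 1 to 3, and that of 005x301 over inbred 301 was 0.11, 0.07, -0.19 and -0.37 in replicates 1 to 4. Over inbred 005 the ratio of 301x005 was -0.07, -0.03, 0.01 and 0.18 in replicates 1 to 4, and that of 005x301 was 0.03, -0.08 and -0.22 in replicates 1 to 3. Only 301x005 over 301 had the same sign in every replicate with a value among these 4 pairs.

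In cross 301/250 each pair has 2 replicates. In endosperm the ratio over inbred 301 was 0.01 and 0.17 for 301x250 and -0.15 and 0.33 for 250x301, and over inbred 250 it was -0.10 and -0.06 for 301x250 and -0.12 and -0.14 for 250x301. In embryos the ratio over inbred 301 was -0.16 and -0.13 for 301x250 and -0.10 and -0.03 for 250x301, and over inbred 250 it was -0.08 and -0.34 for 301x250 and -0.08 and 0.18 for 250x301. In endosperm both hybrids lay below inbred 250 on all 4 arrays.

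The ratios of HSP101 were more spread in 301/005 endosperm than elsewhere. The SD over arrays was 0.34 in 301/005 endosperm (n = 16 arrays) and 0.16 in 301/005 embryos (n = 14). It was 0.17 in 301/250 endosperm and 0.15 in 301/250 embryos (n = 8 arrays each). In 301/005 endosperm 34.1% of the probes with nearly complete values had a smaller SD, so HSP101 was an ordinary probe in spread there. In 301/005 embryos 0.12% of such probes had a smaller SD, but HSP101 itself had too few values to be among them. It lacks the embryo arrays with 926 and 1367 probes, and the SDs of the other probes draw on these sparse arrays. Its rank in the embryos of this cross is therefore not a like comparison. In cross 301/250 HSP101 had a value on every array. There 18.6% of 2436 probes had a smaller SD in endosperm and 2.68% of 1678 in embryos. Over both crosses the SD was 1.97 times as large in endosperm as in embryos, and 97.7% of the 1491 probes with at least 20 values in each tissue had a smaller ratio of SDs (median 0.84). The difference for which the gene was chosen is part of this endosperm spread, so it is a description. The embryo SD of HSP101 again leaves out those sparse arrays, which other probes may include.

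In 301/005 endosperm the HSP101 signal was lower in inbred UH301 than in UH005 in 3 of 4 loops, which is what selected the gene. The difference of inbred 301 minus inbred 005 was -0.65, -0.33, 0.01 and -0.43 in loops 1 to 4, a mean of -0.35 ± 0.27 (SD, n = 4 loops). Loop 3 lay near 0 and the other loops below it. In the linear model across all probes (limma, adjusted p under 0.05) 6.42% of 2351 probes passed for this contrast, and 20.3% had an unadjusted p under 0.05. In size, 66% of these 2351 probes had a smaller difference than HSP101.

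Each loop gives this difference along 2 routes, through the pair of arrays that share either hybrid, and the routes differed for HSP101. Through hybrid 301x005 the difference was -0.81, -0.15, -0.01 and -0.04 in loops 1 to 4. Through hybrid 005x301 it was -0.48, -0.50, 0.02 and -0.82. Loop 1 was low by both routes and loop 3 was near 0 by both. In loop 4 nearly all of the difference came through 005x301, where the array of 005x301 over 301 had the highest HSP101 ratio of the series, 0.73. That array had values for 2084 probes, the fewest of the endosperm arrays. The difference without loop 1, 2, 3 or 4 was -0.25, -0.36, -0.47 or -0.32.

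**Figure D2:**
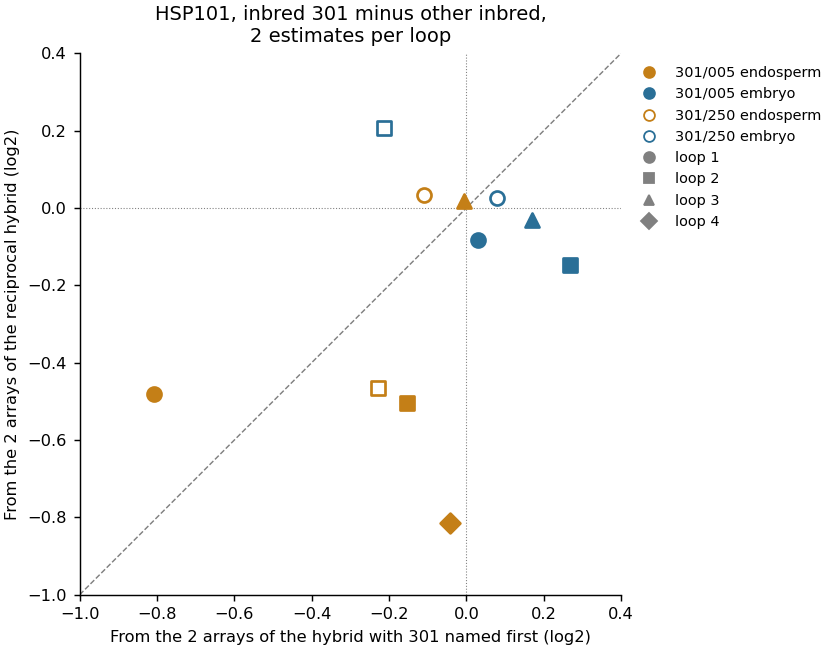
The log2 difference of inbred 301 minus the other inbred for HSP101, from the arrays of the hybrid with 301 named first (horizontal axis) and from those of the reciprocal hybrid (vertical axis), for the 11 complete loops. The dashed line marks equal values. The 301/005 endosperm loops 1, 2 and 4 and the 301/250 endosperm loop 2 lie below 0 on both axes, and loop 4 lies far from the line with -0.04 and -0.82.

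For HSP101 the disagreement between the routes gives an SD of 0.17 for a single array over 11 loops, and 13.7% of the 1151 probes with at least 10 complete loops had a smaller one (median 0.27). Within cross 301/005 this array SD was 0.23 in endosperm and 0.14 in embryos. Within cross 301/250 it was 0.10 in endosperm and 0.15 in embryos.

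The same inbred comparison in embryos, which the choice of the gene did not use, showed no detectable difference. Inbred 301 minus inbred 005 was -0.03, 0.06 and 0.07 in embryo loops 1, 2 and 3. The fitted difference was 0.03 ± 0.17 (SE, n = 3 loops), with a 95% interval of -0.33 to 0.40 and a limma adjusted p of 0.955. In this contrast 0.899% of 1892 probes passed and 13.1% had an unadjusted p under 0.05. HSP101, with an unadjusted p of 0.84, was among neither. The SD of these 3 loop values was 0.05. The SE is larger because it uses the residual spread over all 11 loops of HSP101 (SD 0.20), which limma moderates with that of the other probes (median SD 0.39).

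The second cross compared UH301 with UH250, on arrays other than those that selected the gene. In endosperm inbred 301 minus inbred 250 was -0.04 in loop 1 and -0.35 in loop 2 for HSP101, both below 0. The fitted difference was -0.19 ± 0.20 (SE, n = 2 loops, 95% interval -0.64 to 0.25), which did not pass (limma adjusted p = 0.9). It rests on loop 2, whose 2 routes gave -0.23 and -0.47, while those of loop 1 gave -0.11 and 0.03. In 301/250 embryos the loops gave 0.05 and -0.0034 and the fit 0.02 ± 0.20 (SE, n = 2, 95% interval -0.42 to 0.47, limma adjusted p = 0.99). Of all probes 0% of 2177 passed in endosperm and 0% of 1604 in embryos, where 6.2% and 7.42% had an unadjusted p under 0.05. For HSP101 the unadjusted p was 0.362 in endosperm and 0.907 in embryos. Endosperm minus embryo, the difference of the 2 tissues in this inbred contrast, was -0.22 ± 0.29 (SE, limma adjusted p = 0.961, 95% interval -0.85 to 0.42), so a tissue difference was not detectable. Without 1 replicate it ranged from -0.37 (without endosperm replicate 1) to -0.06 (without endosperm replicate 2). In that test 0% of 1483 probes passed by limma, and 3.44% had an unadjusted p under 0.05. For cross 301/005 the difference of the tissues, -0.38, contains the value that selected the gene and was not tested. Over all probes 0% of 1789 passed by limma in it, and 9.28% had an unadjusted p under 0.05.

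**Figure D3:**
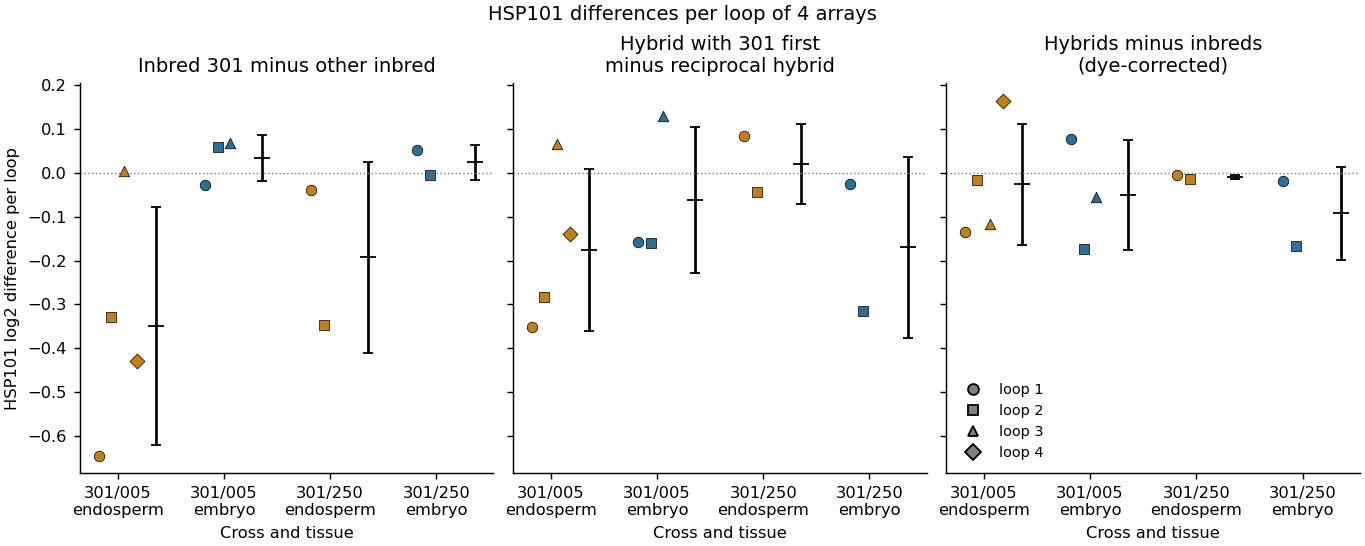
HSP101 log2 differences per loop of 4 arrays, by cross and tissue: inbred 301 minus the other inbred (left), the hybrid with 301 named first minus its reciprocal (middle), and both hybrids minus both inbreds after removal of the fitted dye term (right). Points are loops and the black bars give the mean ± SD. The 301/005 endosperm loops have the lowest inbred difference, with a mean of -0.35, and the mid-parent differences lie between -0.17 and 0.16.

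Reciprocal hybrids differ in which line gave the egg and which the pollen, and the first-named line is taken as the seed parent by convention. In endosperm, which receives more maternal than paternal genome copies, they also differ in parental dosage. HSP101 in 301x005 minus 005x301 was -0.35, -0.28, 0.07 and -0.14 in endosperm loops 1 to 4, lower in 301x005 in 3 of 4 loops. The fitted difference was -0.18 ± 0.12 (SE, n = 4 loops, 95% interval -0.44 to 0.09). It did not pass (limma adjusted p = 0.541, unadjusted p = 0.174), whereas 1.57% of 2351 probes did, and 14.4% had an unadjusted p under 0.05. Without loop 1, 2, 3 or 4 the difference was -0.12, -0.14, -0.26 or -0.19, and with arrays scaled to a common spread it was -0.10. None of these passed (limma adjusted p of 0.449 to 0.839). Set against inbred 301 the loops gave -0.19, -0.46, 0.08 and -0.53, and set against inbred 005 they gave -0.51, -0.11, 0.06 and 0.25, so the inbred partners gave opposite signs in loop 4. The inbred and the reciprocal contrast use the same 16 arrays.

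In 301/005 embryos 301x005 minus 005x301 was -0.16, -0.16 and 0.13 in loops 1 to 3, and -0.06 ± 0.14 in the fit (SE, n = 3, 95% interval -0.37 to 0.25, limma adjusted p = 0.946). A fit of single arrays that also used both remaining arrays of replicate 4 gave 0.01, so the direction is not settled. Those remaining arrays share no RNA, so they cannot separate the reciprocal from the inbred difference. With the replicate block, the same fit gave an inbred difference of 0.11 ± 0.12 (SE). Of all probes 0% of 1892 passed there. An unadjusted p under 0.05 was seen for 6.18%, and HSP101 had an unadjusted p of 0.665. In replicate 4 the ratio was -0.37 for 005x301 over 301 and 0.18 for 301x005 over 005.

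Between 301x250 and 250x301 the HSP101 difference was 0.09 and -0.04 in endosperm loops 1 and 2 and 0.02 ± 0.17 in the fit (SE, n = 2, 95% interval -0.36 to 0.40, limma adjusted p = 1). In embryos it was -0.02 and -0.32, below 0 in both loops, with a fitted value of -0.17 ± 0.17 (SE, n = 2, 95% interval -0.55 to 0.21, limma adjusted p = 0.622). The embryo value rests on loop 2, and it was -0.02 without that loop. In that loop 301x250 over 250 had a ratio of -0.34, the second lowest of the embryos. Of all probes 0% of 2177 passed in endosperm and 0.249% of 1604 in embryos. An unadjusted p under 0.05 was seen for 1.33% in endosperm and for 17.7% in embryos, where HSP101 had 0.906 and 0.342. Neither cross showed a detectable tissue difference in the reciprocal contrast: endosperm minus embryo was -0.11 ± 0.18 in cross 301/005 (SE, 95% interval -0.52 to 0.30, limma adjusted p = 0.844) and 0.19 ± 0.24 in cross 301/250 (SE, 95% interval -0.35 to 0.73, limma adjusted p = 0.867). Without 1 replicate the value of cross 301/005 ranged from -0.20 (without endosperm replicate 3) to -0.02 (without embryo replicate 3), and that of cross 301/250 from 0.04 (without embryo replicate 2) to 0.34 (without embryo replicate 1). In these tests 0% of 1789 and 0% of 1483 probes passed by limma, with 9.84% in cross 301/005 and 7.48% in cross 301/250 at an unadjusted p under 0.05.

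Both hybrids together did not depart detectably from the mean of both inbreds, the mid-parent, in any cross or tissue. In 301/005 endosperm hybrids minus inbreds was -0.22 and -0.20 in loops 1 and 3, in which the inbred RNA was in channel 1 (Cy3), and 0.07 and 0.25 in loops 2 and 4, in which the hybrid RNA was. In embryos the loops lay below 0 in either orientation, at -0.01, -0.09 and -0.14 in cross 301/005 and at -0.10 and -0.08 in cross 301/250. The fitted dye term of HSP101 was 0.09 ± 0.05 (SE). In limma its unadjusted p was 0.134, and 37.6% of probes had a smaller dye term in size. After its removal the endosperm loops of cross 301/005 gave -0.14, -0.01, -0.12 and 0.16 and the fit -0.03 ± 0.09 (SE, n = 4, 95% interval -0.22 to 0.17, limma adjusted p = 0.928, unadjusted p = 0.773). The loops lay on both sides of 0.

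In 301/005 embryos hybrids minus inbreds was 0.08, -0.17 and -0.05 in loops 1 to 3 after removal of the dye term, with a fitted value of -0.05 ± 0.10 (SE, n = 3, 95% interval -0.28 to 0.18, limma adjusted p = 0.932). In 301/250 endosperm the loops gave -0.01 and -0.01 and the fit -0.01 ± 0.12 (SE, n = 2, 95% interval -0.28 to 0.27, limma adjusted p = 1). In 301/250 embryos they gave -0.02 and -0.17 and the fit -0.09 ± 0.12 (SE, n = 2, 95% interval -0.37 to 0.18, limma adjusted p = 0.95). Here 7 of 8 arrays had a ratio below 0, but these arrays form only 2 loops and share RNAs. They were not centred, and their medians over all probes ranged from -0.05 to 0.05. Of all probes 0% of 2076, 0% of 1752, 0% of 1890 and 0% of 1460 passed in the 301/005 endosperm, 301/005 embryo, 301/250 endosperm and 301/250 embryo by limma. An unadjusted p under 0.05 was seen for 7.66%, 7.36%, 1.22% and 6.44% there. The unadjusted p of HSP101 in these was 0.773, 0.631, 0.943 and 0.468. The difference of the tissues, endosperm minus embryo, was 0.02 ± 0.13 in cross 301/005 (SE, 95% interval -0.28 to 0.32, limma adjusted p = 0.991). It was 0.08 ± 0.17 in cross 301/250 (SE, 95% interval -0.31 to 0.47, limma adjusted p = 0.999). Of all probes 0% of 1697 and 0% of 1366 passed by limma in these tests, and 5.19% and 1.54% had an unadjusted p under 0.05.

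The values of a loop can be written as the level of each genotype relative to the mean of the 4. In 301/005 endosperm HSP101 lay at -0.10 ± 0.12 in 301x005, at 0.08 ± 0.11 in 005x301, at -0.16 ± 0.16 in inbred 301 and at 0.19 ± 0.14 in inbred 005 (SD, n = 4 loops). From the highest the order was 005, 005x301, 301x005 and 301, and each neighbouring pair differed by less than the sum of their SDs. Inbred 005 lay above the loop mean in 4 of 4 loops, from 0.06 to 0.39, while inbred 301 ranged from -0.30 to 0.06. In the order of mean levels both genotypes with 005 named first or alone stood above both with 301. Loop 3 did not show this order, since 005x301 was lowest at -0.09 and inbred 301 highest at 0.06. The position of the inbreds in the order of mean levels is the value that selected the gene.

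In 301/005 embryos the levels were -0.06 ± 0.10 in 301x005, 0.01 ± 0.11 in 005x301, 0.04 ± 0.09 in inbred 301 and 0.01 ± 0.04 in inbred 005 (SD, n = 3 loops), and no neighbours in that order differed beyond their spread. In 301/250 endosperm they were 0.01 ± 0.05 in 301x250, -0.01 ± 0.04 in 250x301, -0.09 ± 0.11 in inbred 301 and 0.10 ± 0.11 in inbred 250 (SD, n = 2 loops). In 301/250 embryos they were -0.13 ± 0.16, 0.04 ± 0.05, 0.06 ± 0.03 and 0.03 ± 0.07 in the same genotypes (SD, n = 2 loops). In cross 301/250 inbred 301 had the lowest mean level in endosperm and the highest in embryos, by margins within the spread of the loops.

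**Figure D4:**
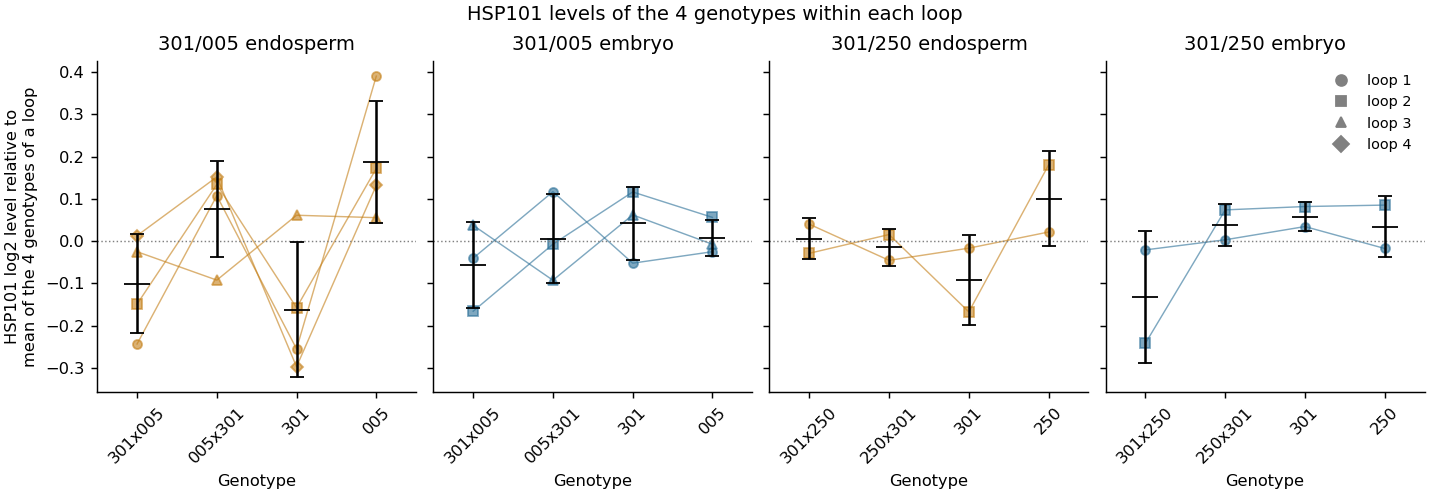
HSP101 log2 level of each genotype relative to the mean of the 4 genotypes of its loop, with the fitted dye term removed, by cross and tissue. Thin lines join the values of a loop and black bars give the mean ± SD. In 301/005 endosperm inbred 005 averages 0.19 and inbred 301 -0.16, and in embryos all levels lie between -0.24 and 0.12.

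With the same fit, GAPDH, a glycolytic gene often used as a reference, had an inbred difference of -0.21 ± 0.20 in 301/005 endosperm (SE, n = 4 loops) and 0.26 ± 0.23 in 301/005 embryos (SE, n = 3). In cross 301/250 GAPDH measured -0.03 ± 0.28 in endosperm and -0.30 ± 0.28 in embryos (SE, n = 2 loops each). EF1A, a translation elongation factor, had fewer complete loops and measured -0.29 ± 0.45 in 301/005 endosperm and 0.57 ± 0.45 in 301/005 embryos (SE, n = 2 loops each). For the reciprocal difference in 301/005 endosperm GAPDH measured -0.23 ± 0.12 and EF1A 0.04 ± 0.37 (SE). None of these passed (limma adjusted p of 0.411 to 0.99).

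The probe whose ratios were most like those of HSP101 was V_got2, with a Pearson r of 0.73 over 46 arrays. It was followed by MF10 (r = 0.66, 46 arrays), S_CC922 (r = 0.66, 44 arrays), S_CC731 (r = 0.66, 45 arrays) and QE12 (r = 0.64, 46 arrays), among 1799 probes that shared at least 40 arrays with it. These IDs matched no gene name in the sources used here. The got2 in V_got2 reads like a gene name but matched no RefSeq symbol or synonym, so V_got2 is not counted among the named genes. The lowest were S_CC860 (r = -0.58) and LH1 (r = -0.57). Of 12 probes that carry a gene name and enough values, the highest were GLN4, a glutamine synthetase (r = 0.51, 42 arrays), WEE1, a kinase that delays mitosis (r = 0.25, 44 arrays) and GAPDH (r = 0.22, 46 arrays). The arrays share RNAs and dyes, so these are descriptions. Over the inbred and reciprocal differences of the loops, from which a constant dye effect is removed, r was 0.48 for V_got2, 0.63 for MF10, 0.49 for S_CC922, 0.62 for S_CC731 and 0.48 for QE12. These ranked 137, 31, 122, 38 and 131 among the 1799 probes. The loop differences also include the one that selected the gene. For the probes named here they number only 16 (GLN4, LH1) to 22 (V_got2). On this measure r was -0.48 for S_CC860, -0.65 for LH1, 0.23 for GLN4 (rank 569) and 0.22 for WEE1 (rank 595), and GAPDH turned to -0.07 (rank 1284).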

How the data were processed

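Per the labels' protocols, mRNA from oligo-dT beads was copied with the SMART method, amplified by long-distance PCR for a number of cycles chosen in each sample, and then random-primed for labelling with Cy3 or Cy5. PCR before labelling can distort ratios. The deposited values are the authors' log ratios, taken as log2, 1 per probe and array. Background correction, normalization, log base and direction were not given in the sources used here. Medians of the arrays ranged from -0.20 to 0.11, and no centring was added. Without intensities, precision is judged from the spread between loops and between the arrays of a loop.

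Of 3592 entries 7 controls were left out. Ratios were turned to hybrid over inbred (odd replicates carried the inbred in channel 1). Each loop with all 4 values gave the inbred, reciprocal and mid-parent difference (11 loops for HSP101). All 12 loops entered 1 fit, with a coefficient for each cross and tissue and a dye term for the mid-parent, in limma 3.58.1 under R 4.3.3. Two-sided p-values were Benjamini-Hochberg adjusted over all probes tested (at least 2 loops with both dye orientations, 3 residual degrees of freedom), with a threshold of 0.05. The fit was run on simulated data with independent noise on each array and known differences larger than those of HSP101. That run does not show what the fit detects at the sizes seen here. Per the labels, the genotypes of a set were pollinated the same day, so the loop pairs them. Across tissues same-numbered loops were not treated as pairs (r of deviations -0.06 to 0.49 in cross 301/005). HSP101 and all lists were chosen with earlier results of these data known. Named probes are the 5 most and 2 least like HSP101, the 3 most like among named genes, and GAPDH and EF1A.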

Additional observations from a re-analysis of the deposited data

How the results depend on the processing

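None of the 16 tested HSP101 differences passed under any alternative run. The lowest adjusted p over them was 0.449 and the lowest unadjusted p 0.0884, both for the reciprocal difference in 301/005 endosperm without replicate 3. The inbred difference in 301/005 endosperm, which selected the gene, stayed between -0.36 and -0.29 under the other settings and between -0.47 and -0.25 without 1 replicate. Over 195 recomputed values 15 changed sign, and each of those lay within its standard error of 0. With single arrays the fit with the replicate block and the fit with no replicate block both gave 0.0096 for the reciprocal difference in 301/005 embryos, and loops whose arrays all carry the 623 probes with IDs beginning with P, which 10 arrays lack, gave 0.13 (loop 3 alone). The mid-parent difference in 301/250 endosperm was 0.0091 with centred and 0.0018 with scaled arrays. With tissues paired by number as a replicate block, the mid-parent tissue difference of cross 301/005 was -0.039. Without 1 replicate, the mid-parent difference ranged from -0.11 to 0.042 in 301/005 embryos, from -0.098 to 0.016 in 301/005 endosperm and from -0.18 to 3.5e-05 in 301/250 embryos. Its tissue difference ranged from -0.067 to 0.088 in cross 301/005 and from -0.0091 to 0.18 in cross 301/250. The inbred difference in 301/250 embryos ranged from -0.0034 to 0.052 and the reciprocal difference in 301/250 endosperm from -0.044 to 0.085. A lone loop is assumed to vary like the others. The cause of these changes of sign was not tested. The fit of probes with a value on all arrays gives none for HSP101, which lacks 2, and the fit of single groups none for the mid-parent in cross 301/250. The mid-parent tissue difference without a dye term was chosen after seeing the data. Over all probes, the inbred difference had 151 calls (40 to 307 over the alternatives) in 301/005 endosperm and 17 (0 to 92) in 301/005 embryos, and the reciprocal difference had 37 (0 to 88) in 301/005 endosperm and 4 (0 to 12) in 301/250 embryos.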
